A study of Mus musculus with 16 samples.

Results

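The 7 clonal lines MEF1-1 to MEF1-7 were grown from single cells of 1 immortalised fibroblast line, and how far the expression of each gene spread among them is described here. They were 7 of the 16 lines sequenced, chosen by their labels alone, and the genes followed were the 15285, of 21872 that code for proteins, whose mean rlog value over all 16 lines was above 0. Total RNA of each line was sequenced once after depletion of ribosomal RNA. The other libraries were the parental line MEF-1, the parental line MEF-2 and the 7 clonal lines of MEF-2. No line carried a labelled alteration or treatment. Both parents were mouse embryonic fibroblasts (MEFs) of C57BL/6J sibling embryos at E13.5, immortalised by serial passage, and each clonal line descends from 1 sorted cell. By the paper's PCR of the SRY gene, the MEF-1 embryo was male and the MEF-2 embryo female. No line had a second library, so a difference between lines joins what the founder cells passed on, later drift in culture and the error of a single library, and these cannot be told apart.

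A clonal line can inherit parts of the expression state of its founder. States that are copied through mitosis, through chromatin, DNA methylation or self-sustaining transcription factors, can keep cells of 1 type different from each other. Fibroblasts are a varied cell type: they keep a memory of their place in the body in their Hox code and differ in the matrix, signalling proteins and cytokines they make. Genes of basic machinery, such as the ribosome or RNA polymerase, are needed by every cell.

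The values are rlog values, read counts brought to a log2 scale with low counts shrunken towards the mean of the gene, so that 1 unit is a doubling and the fold change of a weakly expressed gene is understated. For each line the median of each autosome and of the X chromosome was taken away, because clonal lines of immortalised cells can gain or lose chromosomes. Y and mitochondrial genes took the median over all autosomes instead. From the coverage of its bisulfite libraries, the paper proposes loss of a copy of chromosomes 12 and 18 in all or part of the MEF-1 lines. The medians taken away were relative to all 14 clonal lines. Relative to the mean of the 7 MEF-1 clonal lines, the chromosome medians before this step lay between -0.36 and 0.29. Chromosome 18 had both ends: -0.33, -0.36 and -0.32 in lines 1, 4 and 5 against 0.20, 0.24, 0.29 and 0.29 in lines 2, 3, 6 and 7. The range of a gene is its highest minus its lowest value over the 7 lines, and a gene with a range of 2 or more, which is 4-fold, is called varying. The read depth of the libraries is not known from the values. Of 20 fibroblast markers, 4 varied between the 7 lines (Lum, Dcn, Postn and Fap, with ranges of 2.81, 2.66, 2.18 and 2.02), and the median range of the 20 was 0.747. The most abundant structural genes were high in every line. Col1a1, the main chain of type I collagen, lay between 20.81 and 21.43, its partner Col1a2 between 19.51 and 20.04, and the intermediate filament vimentin (Vim) between 17.90 and 18.44. Thy1, a surface marker of many fibroblasts, was low in all 7 clonal lines, at 2.67 to 3.40, beside 6.16 in the parental line. Keratins of simple epithelia (Krt8, 0.10 to 0.37, and Krt18, 0.36 to 0.73), the endothelial cadherin Cdh5 (0.20 to 0.56) and the leukocyte gene Laptm5 (1.20 to 1.61) were low. Not all such markers were: the epithelial genes Cdh1 and Epcam spanned 6.83 to 8.4 and 2.70 to 4.47, the endothelial receptor Tek 3.77 to 5.82 and the myeloid lysozyme Lyz2 4.97 to 7.19. Of the epithelial, endothelial and blood cell markers, 10 of 16, 10 of 14 and 9 of 16 had a mean above 0, and the part of other cell types in the spread was not tested.

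Most genes differed little between the 7 lines. The median range was 0.525, or 1.44-fold between the highest and the lowest line, and the median SD was 0.185. The range was above 0.958 in 25% of genes and above 2.08 in 5%. In all, 861 genes varied, 5.63% of those measured. Of these, 227 had a range of 3 or more and 86, or 0.563%, a range of 4 or more (53, or 0.347%, among the MEF-2 clonal lines). Among the 7 MEF-2 clonal lines the median range was 0.447, and 709 genes, 4.64%, varied. At the threshold, the genes just inside included Chd7 and Loxl4 at 2.000 and 2.002, and those just outside were Col25a1, Cela1 and Pitpnm3 at 1.999 to 2.000.

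**Figure D1:**
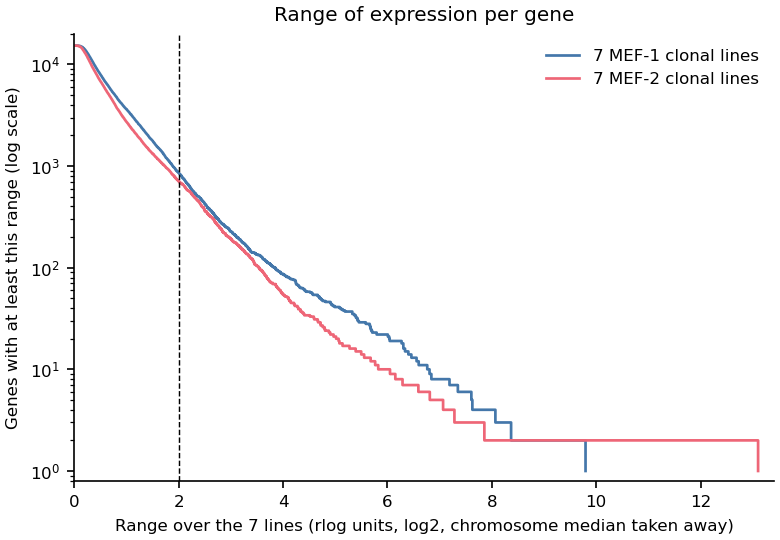
Number of genes (vertical axis, log scale) whose range over the 7 lines is at least the value on the horizontal axis (rlog units, log2). The blue line stands for the MEF-1 and the red line for the MEF-2 clonal lines, and the dashed line marks the range of 2 that 861 and 709 genes reached.

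The share of varying genes differed with expression level. Of the 2162 genes with a 16-line mean between 0 and 3.75, 199 varied (9.2%), and of the 4374 genes with a mean between 3.75 and 9.95, 557 did (12.7%). Of the 4374 genes between 9.95 and 11.96 only 66 varied (1.51%), and of the 4375 genes above that only 39 (0.891%). Shares by chromosome ran from 3.08% on chromosome 12 to 9.6% on chromosome 13, among the chromosomes with over 20 genes. No gene of the mitochondrial genome varied, and 2 of 8 genes on the Y chromosome did. Among the MEF-2 clonal lines the shares of the 4 groups were 4.07%, 11.3%, 1.71% and 1.21%. Among genes with a mean above 0, the weakest group thus did not have the largest share in either set. The parts of counting error and of the shrinkage of low counts in these shares were not tested.

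Among genes with a mean above 9.95, Gtpbp1, a GTP-binding protein, had the lowest SD: its values in lines 1 to 7 were 11.93, 11.91, 11.93, 11.95, 11.95, 11.92 and 11.92, a range of 0.04 or 1.03-fold. The next was Nckap1, a subunit of the WAVE complex that drives actin branching, between 14.24 and 14.28. Usp8, a deubiquitinase of the endosome, Zmynd11, a reader of histone methylation, Fkbp15, the scaffold Mpdz, the Golgi protein Yipf6 and Wdr70 followed with ranges of 0.06 or 0.07. The same 8 genes had ranges between 0.13 and 0.34 among the MEF-2 clonal lines. The genes were picked for their small SD, so their evenness is a description.

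Short stretches of promoter sequence are shown for a steady gene, for a Hox gene of the group described further down and for the genes with the most marked single-line high and with a single-line low at high expression. CpG dinucleotides, the sites of DNA methylation, are in capitals. Each is the RefSeq window of 300 bases, from 250 before to 50 after the gene start, on build GRCm38.p6, written 5′ to 3′ along the strand of the gene: Gtpbp1 at chr15:79690646-79690945 (+), Hoxb8 at chr11:96281655-96281954 (+), Ndn at chr7:62348027-62348326 (+) and Nlrp2 at chr7:5350986-5351285 (-).
Gtpbp1: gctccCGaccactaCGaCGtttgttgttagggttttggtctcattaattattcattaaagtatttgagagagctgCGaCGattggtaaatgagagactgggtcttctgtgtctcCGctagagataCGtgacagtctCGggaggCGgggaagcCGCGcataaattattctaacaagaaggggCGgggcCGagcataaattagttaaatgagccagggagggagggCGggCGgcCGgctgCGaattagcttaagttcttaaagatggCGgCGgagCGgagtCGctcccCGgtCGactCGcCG
Hoxb8: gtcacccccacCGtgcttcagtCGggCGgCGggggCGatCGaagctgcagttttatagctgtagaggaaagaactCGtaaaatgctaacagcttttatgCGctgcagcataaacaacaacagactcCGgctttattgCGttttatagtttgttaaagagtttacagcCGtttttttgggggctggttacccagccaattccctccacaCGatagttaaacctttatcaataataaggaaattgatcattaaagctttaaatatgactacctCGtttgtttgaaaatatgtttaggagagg
Ndn: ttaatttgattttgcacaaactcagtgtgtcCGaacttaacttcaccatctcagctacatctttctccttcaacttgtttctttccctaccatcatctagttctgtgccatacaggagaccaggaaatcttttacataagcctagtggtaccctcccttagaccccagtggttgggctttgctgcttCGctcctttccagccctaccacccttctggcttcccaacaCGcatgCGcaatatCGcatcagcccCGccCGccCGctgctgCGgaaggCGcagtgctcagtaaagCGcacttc
Nlrp2: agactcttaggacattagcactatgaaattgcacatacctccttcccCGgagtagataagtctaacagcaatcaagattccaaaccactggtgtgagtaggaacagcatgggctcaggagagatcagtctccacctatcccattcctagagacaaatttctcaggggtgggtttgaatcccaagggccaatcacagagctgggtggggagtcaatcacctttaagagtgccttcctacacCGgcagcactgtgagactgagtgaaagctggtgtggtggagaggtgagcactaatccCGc
Written in this order, the windows held 25, 13, 11 and 3 CpG. Over the 11724 windows that could be matched to measured genes, the median was 20 CpG, with the middle 50% between 11 and 28, and 7.49% of windows held no more than the 3 of Nlrp2. A window was found for 76.7% of the measured genes but for 68.3% of the varying ones, under the 80% set for a comparison, so CpG content and spread were not compared.

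Genes of shared function were described in 49 lists. In 16 lists no gene varied, and in 31 lists the share that varied was above the 5.63% of all genes. The ribosome, the proteasome, the respiratory chain, the spliceosome and the translation factors had no varying gene and median ranges of 0.36, 0.312, 0.31, 0.361 and 0.311. Their genes are highly expressed, and among all genes with a mean above 11.96 the share that varied was 0.891%. The relative spread, the log2 ratio of the SD of a gene to the typical SD of genes of like level, had medians of -0.21, -0.06, -0.14, 0.06 and -0.11 in these lists, close to the 0 of all genes. The lowest median range, 0.234, was that of RNA polymerase II and Mediator, the complex that joins it to transcription factors, with a median relative spread of -0.7. Of its 37 genes the widest was the polymerase subunit Polr2l at 0.75, and the Mediator subunit Med15 lay between 12.44 and 12.51 in all 7 lines. Of 57 ribosomal proteins, Rpl22 had the smallest range (0.14) and Rpl12 the largest (0.72). No gene varied among the 38 of the Polycomb and Trithorax groups, which keep genes silent or active through division, nor among the 25 of DNA methylation and demethylation, with median ranges of 0.354 and 0.516. At their median levels of 12.08 and 12.01 few genes of any kind varied, and the median relative spread was -0.09 for the first and 0.55 for the second list.

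**Figure D2:**
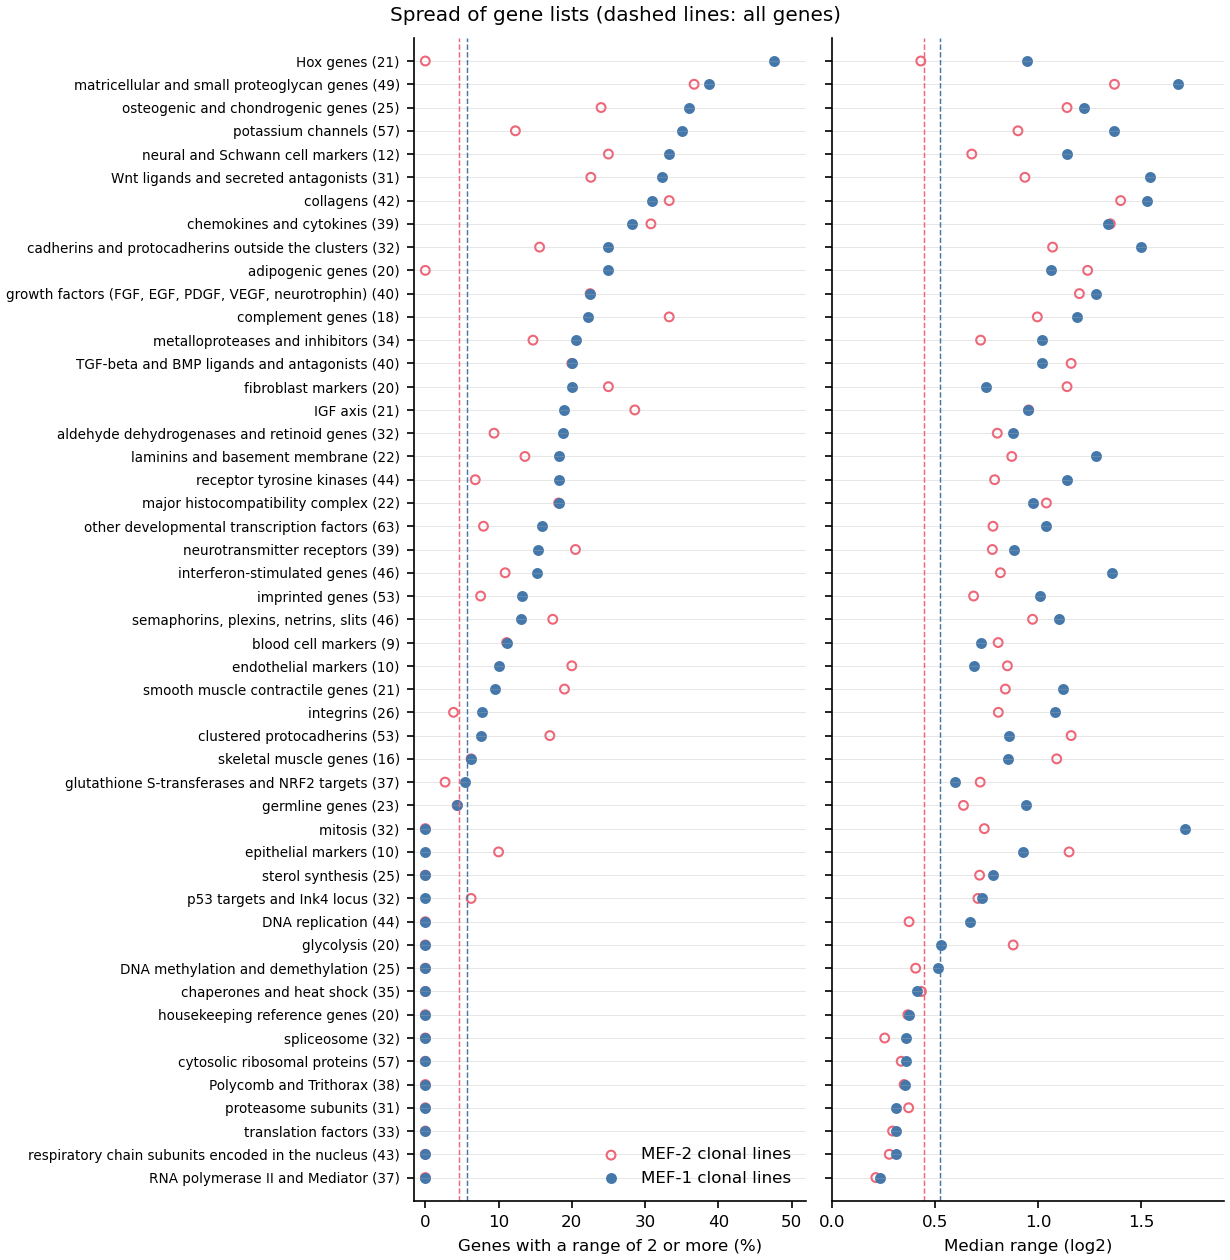
Each row is a list of genes with the number measured in brackets. Left, percent of its genes with a range of 2 or more, and right, the median range (log2), among the MEF-1 (filled) and the MEF-2 clonal lines (open). Dashed lines give all genes: 5.63% and 0.525 in MEF-1. Hox genes are at 47.6% in MEF-1 and at 0 in MEF-2, where the 10 that varied in MEF-1 were at or under 4.28.

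Mitotic genes spread moderately and in 1 order: line 5 was highest in 31 of the 32 and line 1 lowest in 30. None varied at 4-fold, yet 30 had a range of 1 or more (93.8%, against 23.7% of all genes), and the median range of 1.71 was the largest of the 49 lists. Their median distance from the mean of the 7 lines was -0.72, -0.28, -0.29, 0.01, 0.94, 0.08 and 0.29 in lines 1 to 7. Ccnb1, the cyclin of entry into mitosis, had values of 10.64, 11.03, 11.17, 11.47, 12.52, 11.45 and 11.70 in lines 1 to 7, beside 12.74 in the parental line. The mitotic kinases Plk1 and Aurkb spanned 9.88 to 11.69 and 9.23 to 11.04, each from line 1 to line 5. DNA replication genes spread less: none of 44 varied and the median range was 0.671. Line 5 was again highest, with a median distance of 0.38, but line 2 was lowest with -0.23. Mcm10, a replication initiation factor, was lowest in line 1 (8.35) and highest in line 5 (9.87). Among the MEF-2 lines the mitotic list had a median range of 0.739. How fast each line divided is not given in the sources used here.

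Genes of replication-dependent histones, which are transcribed in S phase, had lines 1 and 2 lowest. They were taken up after their values were seen and were not among the 49 lists. Of 64 measured, 23 varied (35.9%, against 5.63% of all genes), with a median range of 1.85. Among the MEF-2 lines 3 varied and the median range was 0.74. In MEF-1, lines 1 and 2 were the lowest pair in 56 of the 64. Their median distance from the mean was -0.96, -0.86, 0.02, 0.24, 0.75, 0.38 and 0.44 in lines 1 to 7. Line 2, close to line 3 for mitotic genes, was here almost as low as line 1. Runs of 3 neighbours each on chromosome 13 had lines 1 and 2 below the other 5 by a gap of 1 or more, at chr13:21715763-21718069 (Hist1h2bl, Hist1h2ai and Hist1h3h) and chr13:21750194-21754503 (Hist1h4k, Hist1h2ak and Hist1h2bn). Hist1h2ak had values of 7.33, 7.28, 9.11, 9.65, 9.68, 9.63 and 9.62. Lines 1 and 2 lay apart from the rest by 1.78. Histone genes are near-identical copies, and reads may have been shared out between them.

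The lists with the largest shares of varying genes, besides the Hox genes described further down, were of extracellular matrix, skeletal development, ion channels and Wnt signalling, beside 4 of 12 neural markers (33.3%). Of the 49 matricellular and small proteoglycan genes, 19 varied (38.8%), of 42 collagens 13 (31%), of 31 Wnt ligands and secreted antagonists 10 (32.3%), of 25 osteogenic and chondrogenic genes 9 (36%), and of 57 potassium channels 20 (35.1%). Among the MEF-2 lines these lists had 18, 14, 7, 6 and 7 varying genes. The lists share members, such as Matn1 and Col9a1, and their median levels, 4.76 to 11.16, were below those of the ribosome, proteasome, respiratory chain, spliceosome, translation and polymerase lists, 11.17 to 15.32. Against genes of like level their median relative spread was 1.61, 1.23, 0.89, 1.3 and 0.6, in the order given above.

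Several matrix genes had their highest value in line 4. Col9a1, a chain of the cartilage collagen IX, had values of 9.43, 7.77, 9.12, 12.19, 8.92, 9.95 and 8.48 in lines 1 to 7, a 21.4-fold range. Its partner chain Col9a2 was also highest in line 4, at 10.90 beside 8.03 to 9.54. Matn1, a cartilage matrix protein, read 6.28, 4.21, 6.37, 8.76, 4.00, 7.19 and 4.95. Line 4 was top for these 3 genes, while the other lines did not keep 1 order. Fmod and Epyc, small leucine-rich proteoglycans, were highest in line 4 too, at 13.98 and 7.88 with the next line at 12.05 and 6.63. Other matrix genes had another top line. Col10a1, a collagen of hypertrophic cartilage, was highest in line 2 (8.44), and Tnn, a tenascin, was highest in line 7 at 8.05 against 3.14 to 5.47. The fibrillar collagen Col3a1 had a range of only 0.74. Dcn and Lum, proteoglycans that bind collagen fibrils, had ranges of 2.66 and 2.81 and were above the parental values of 8.06 and 7.93 in all 7 lines.

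Secreted Wnt antagonists are described first. Sfrp2 had values of 15.58, 13.06, 10.54, 14.00, 12.32, 8.73 and 9.70 in lines 1 to 7, a 115-fold range, with 9.61 in the parental line and 5.85 to 6.74 among the MEF-2 lines. The widest gap between neighbouring values, 1.79, set lines 1, 2, 4 and 5 above lines 3, 6 and 7. Sfrp1 was at 14.42 in line 7 and between 11.67 and 12.46 in the other 6. Sfrp4 was lowest in lines 4 and 5 (5.39 and 6.02) and at 7.41 to 8.71 in the rest. Each of these 3 relatives thus had its own order of lines. Igf2, the imprinted fetal growth factor, ran from 11.55 in line 7 to 15.56 in line 4, with 13.94 in the parental line. Ednrb, the endothelin receptor B, had values of 3.86, 6.47, 7.57, 3.48, 2.71, 5.90 and 9.90. Lines 1, 4 and 5 were its 3 lowest and line 7 its highest. The chemokine precursor Ppbp ranged from 10.73 in line 1 to 15.29 in line 7, and Il1rn, the interleukin 1 receptor antagonist, from 10.86 in line 4 to 14.45 in line 7.

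Interferon-stimulated genes, the antiviral set, were highest in lines 1 and 2. Of 46 measured, 7 varied (15.2%) and 28 had a range of 1 or more (60.9%), against 5.63% and 23.7% of all genes. Among the MEF-2 lines 5 varied (10.9%). Their median level was 7.79, and of all genes between 3.75 and 9.95, 12.7% varied in MEF-1. Against genes of like level their median relative spread was 0.83. Their median distance from the mean was 0.36, 0.43, -0.09, -0.28, -0.41, 0.13 and -0.17 in lines 1 to 7. The protease Usp18, a brake of interferon signalling, had values of 7.53, 7.07, 5.95, 5.61, 5.23, 5.48 and 5.85, and the factor Irf7 values of 7.63, 7.06, 6.05, 5.85, 5.37, 5.92 and 5.94. In both, lines 1 and 2 lay above the other 5. Trim30a had a different top line, at 9.94 in line 6 and 5.60 to 8.54 elsewhere.

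Hox genes, the homeobox factors that set position along the body axis, were the list with the largest share of varying genes. Of 21 measured, 10 varied among the MEF-1 lines (47.6%) and 0 among the MEF-2 lines, where the median range was 0.431. The 10 were Hoxa9, Hoxa10, Hoxa11, Hoxa13, the run from Hoxb5 to Hoxb9, and Hoxd8. All the others had a range under 1, with the smallest, 0.36, in Hoxb3. The boundary within a cluster was sharp. On chromosome 11, Hoxb4, Hoxb3 and Hoxb2 had ranges of 0.44, 0.36 and 0.37, while Hoxb5 next to Hoxb4 had 5.08.

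The run from Hoxb9 to Hoxb5 (chr11:96271457-96306121) split the lines into 2 groups without overlap. Hoxb9 had values of 12.49, 6.15, 6.10, 12.16, 12.83, 4.46 and 4.72 in lines 1 to 7. Lines 1, 4 and 5 lay within 0.67 of each other and 6.01, or 64.4-fold, above the next line. Hoxb8 had values of 10.80, 6.27, 4.42, 9.97, 10.56, 3.72 and 3.45, and Hoxb7 of 9.04, 5.86, 3.48, 8.33, 8.87, 2.64 and 3.2. Hoxb6 and Hoxb5 split the same way with gaps of 2.69 and 2.94. Within the lower group line 2 was highest for all 5 genes. The parental line lay between the groups for each gene, as with 10.27 for Hoxb9 and 8.75 for Hoxb8, and all MEF-2 lines were at or under 4.28 for Hoxb9 and 3.18 for Hoxb8.

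The far end of the HoxA cluster (chr6:52223100-52260880) had line 4 on top. Hoxa13, the last gene of the cluster, had values of 3.03, 1.37, 1.11, 8.71, 4.07, 1.11 and 1.08 in lines 1 to 7. Line 4 stood 4.64, or 25-fold, above line 5. Hoxa11 had values of 4.89, 2.44, 2.32, 8.4, 6.48, 2.85 and 1.84, and Hoxa10 of 8.27, 5.87, 5.35, 9.74, 8.38, 4.05 and 4.5. Lines 1, 4 and 5 were the highest 3 for these genes and for Hoxa9. From Hoxa2 to Hoxa7 no range was over 0.88.

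**Figure D3:**
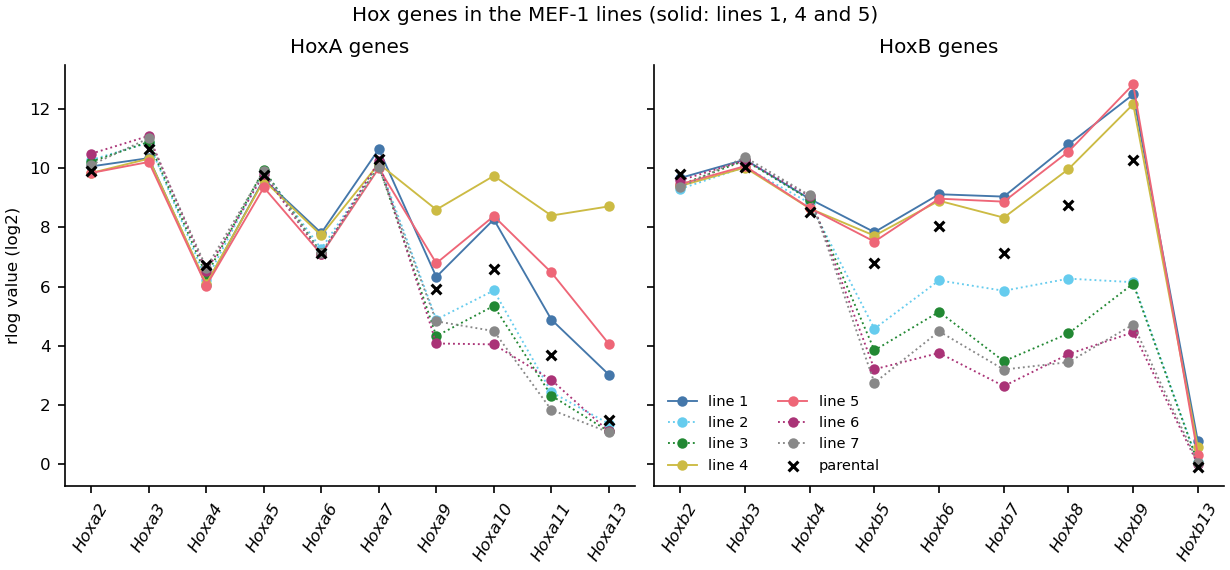
rlog value (vertical axis, log2) of HoxA and HoxB genes, ordered along each cluster, in the 7 MEF-1 clonal lines (colours; solid for lines 1, 4 and 5, dotted for the rest) and the parental line (cross). The lines part at Hoxb5, and Hoxb9 is at 12.16 to 12.83 in lines 1, 4 and 5 and at 4.46 to 6.15 in the others.

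The division of lines 1, 4 and 5 from lines 2, 3, 6 and 7 was not limited to Hox genes. Each varying gene was split at the widest gap between neighbouring values. The gap was 1 or more in 489 of the 861. Of these, 296 set 1 line apart from 6, 99 set 2 apart from 5 and 94 set 3 apart from 4. There are 35 ways to set 3 lines apart from 4, and 63 of the 94 genes took this one. Of the 63 genes, 35 were higher and 28 lower in lines 1, 4 and 5, with a median gap of 1.38. They lay on 18 chromosomes, 3 of them on chromosome 18, whose median parted the same lines and was taken away. Whether the chromosome 18 difference plays a part in the other genes was not tested.

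Among the genes higher in lines 1, 4 and 5 was the potassium channel Kcnk1, with values of 9.07, 3.63, 6.04, 9.00, 9.29, 4.6 and 5.78 in lines 1 to 7 and 9.65 in the parental line. The homeobox factor Meox1 was at 9.67, 9.62 and 9.71 in lines 1, 4 and 5 and at 7.04 to 7.88 in the other 4. Both genes parted the lines with no overlap. Others were the developmental factors Eya2, Isl2 and En2, the ligand Bmp3, the receptor Fgfr4 and the laminin-binding integrin Itga7, with means in lines 1, 4 and 5 of 7.45, 5.96, 4.59, 8.4, 6.18 and 12.39 beside 4.88, 3.72, 2.55, 5.90, 4.34 and 10.64 in the other lines. Genes lower in lines 1, 4 and 5 included the guidance ligands Sema3d (mean 5.54 beside 9.56) and Sema6d (3.86 beside 7.11), the glycosyltransferase Galnt13 (5.14 beside 9.21) and the crosslinking enzyme Tgm2 (10.35 beside 12.25). The bHLH-PAS factor Sim2 was at 8.90 to 9.24 in lines 1, 4 and 5 and at 10.25 to 11.25 in the rest. The parental value was nearer to the mean of lines 1, 4 and 5 in 40 of the 63 genes, 22 of the higher and 18 of the lower. Among the MEF-2 lines 28 of the 63 had a range under 1, and 14 a range of 2 or more. Of all genes, only 17.8% had a MEF-2 range of 1 or more and 4.64% a range of 2 or more.

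**Figure D4:**
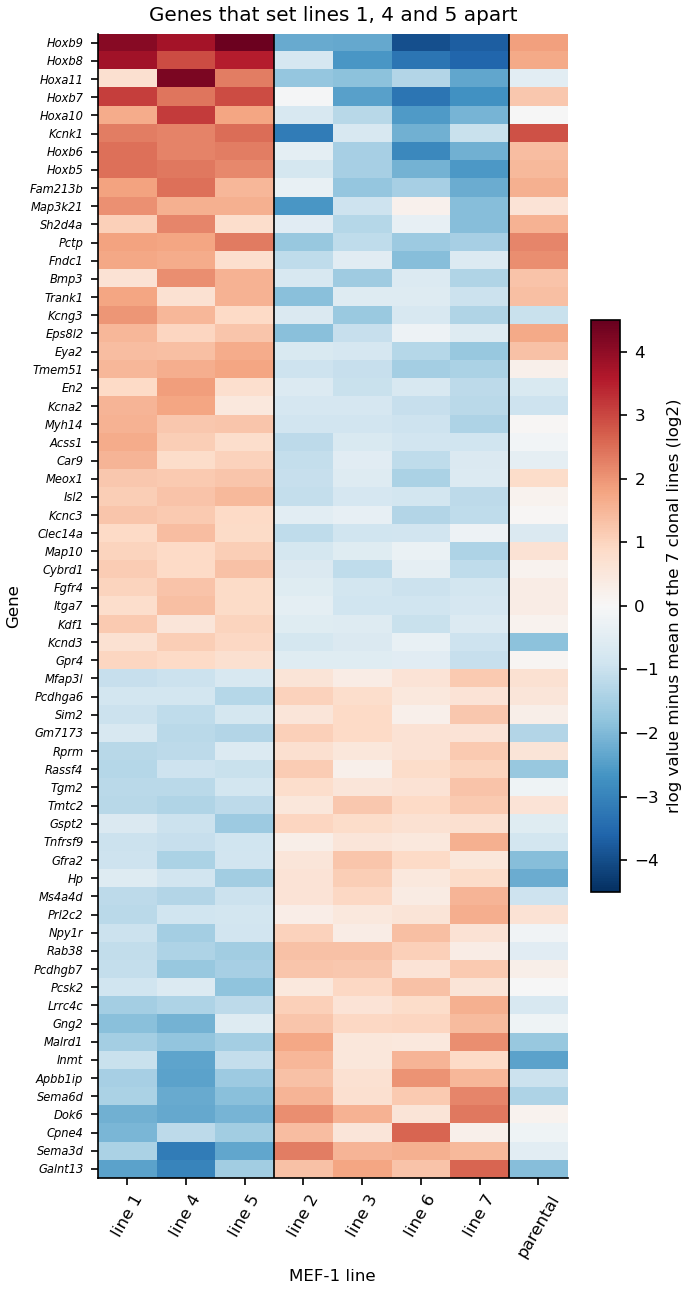
The 63 genes (rows) whose widest gap set lines 1, 4 and 5 apart, coloured by the distance of the rlog value from the 7-line mean (log2; red higher, blue lower), with the parental line at the right. The upper 35 genes are higher and the lower 28 lower in lines 1, 4 and 5; the genes were chosen for this split.

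Other groupings held fewer genes. Lines 1 and 2 were set apart by 21 genes, 15 of them lower, and 13 of these 15 were histone genes; the 6 higher included Usp18 and Irf7. Lines 4 and 5 were set apart by 17 genes. In all, 40 of the 63 possible divisions of 7 lines were seen. Counted by pairs of lines, the fewest genes that differed 4-fold or more were found between lines 3 and 7 (47) and lines 4 and 5 (48), and the most between lines 4 and 7 (316) and lines 1 and 7 (275).

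Single lines also stood apart. A single-line high was called where 1 line exceeded the next by 1 or more (2-fold) and by a share of the whole range above the 95% limit of the Dixon test for 7 values. There were 105 highs, 0.687% of genes, and 38 lows, 0.249%. The MEF-2 clonal lines held 78 highs (0.51%) and 51 lows (0.334%). From line 1 to line 7 the highs numbered 25, 22, 1, 11, 4, 10 and 32, and the lows 2, 11, 4, 3, 6, 11 and 1. Line 7 had the most highs and line 3 only 1. Of the 105 highs, 65 had a 16-line mean of at most 3.75, a level at which 2162 of the 15285 genes lay. Only 1 of the 38 lows did, but a gene near the lower end of the scale has little room to fall. In 98 of the 105 highs the parental line was nearer to the median of the other 6 lines than to the line apart, and in 21 of the 38 lows. The genes were picked because 6 lines lay close together beside the gap, so these counts are a description.

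**Figure D5:**
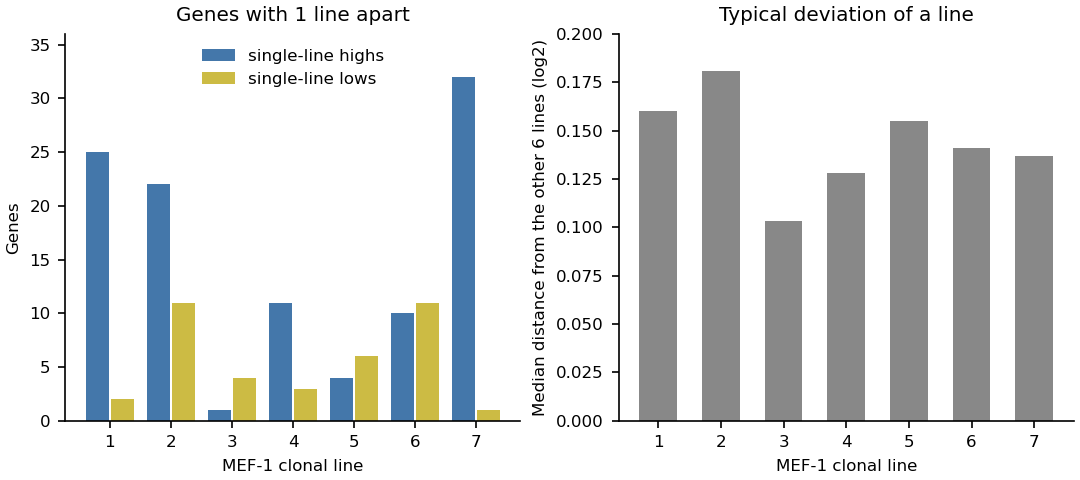
Left, number of genes in which each MEF-1 clonal line (horizontal axis) stood alone above (blue) or below (yellow) the other 6. Right, median distance of a line from the median of the other 6 over all 15285 genes (log2). Line 7 has 32 highs and line 3 has 1 high and the smallest distance, 0.103.

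Line 7 held the widest range of all genes. Nlrp2, an NLR family protein best known from the oocyte, had values of 0.96, 0.93, 3.02, 0.93, 0.77, 3.22 and 10.56 in lines 1 to 7, with 1.03 in the parental line and 0.79 to 0.91 among the MEF-2 lines. Line 7 was 7.34, or 163-fold, above line 6, and lines 3 and 6 lay about 2 above the rest. Rnf180, a ubiquitin ligase, was at 8.45 in line 7 and 2.18 to 3.49 in the others. Sox2, a factor of stem and neural cells, was at 7.48 in line 7 and 1.43 to 3.48 in the others. The genes lie on chromosomes 7, 13 and 3. The calcium sensor of potassium channels Kcnip1 also peaked in line 7, at 8.22 against 3.98 to 5.95. The only low of line 7 was Gm20422, at 3.12 against 4.41 to 5.2.

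Line 1 held Gm10147, at 7.65 with the others between 0.84 and 1.62, and the collagen Col26a1, at 8.01 with the others between 1.41 and 3.40. Its lows were the integrin subunit Itgb6 (3.8 against 4.93 to 5.5) and Cdsn, a protein of the skin barrier (10.27 against 11.38 to 12.03). Line 2 was alone in a high level of the riboflavin transporter Slc52a3 (6.19 against 3.01 to 3.69) and of the sulfotransferase Sult1a1 (7.23 against 3.98 to 4.83). It was alone in a low level of the vesicle protein Sytl4 (6.99 against 8.72 to 9.12) and of the Nogo receptor Rtn4r (3.94 against 5.48 to 5.69). In the lines that were not apart, Gm10147 was at or under 1.62, and Slc52a3 and Sult1a1 were at or above 3.01. Low counts are shrunken towards the mean of each gene, so these levels do not show which gene was silent.

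Line 3 had the fewest single-line genes, but 1 of them was at high expression. Ndn, the imprinted growth suppressor necdin, had values of 10.94, 10.55, 8.08, 11.12, 11.12, 10.67 and 10.24 in lines 1 to 7. The other 6 lines, the parental line at 11.00 and the MEF-2 lines at 10.91 to 11.60 lay close together, and line 3 was 2.16, or 4.47-fold, below the next. Its other leading low was Fam205a3 (2.09 against 4.40 to 6.00) and its high was Gm14440 (8.66 against 1.9 to 2.20). Gm14440 also ranged from 1.96 to 9.82 among the MEF-2 lines.

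Line 4 stood alone with Trpc2, a cation channel of pheromone-sensing neurons, at 7.66 against 1.32 to 1.69, and with Hoxa13. Trpc2 read 3.58 in the parental line and ranged from 1.35 to 6.90 among the MEF-2 lines. The lows of line 4 were Plch1, a phospholipase C (3.88 against 5.14 to 5.89), and Mpped2 (5.93 against 7.18 to 7.81). Pax1, a factor of the sclerotome, was shared with line 1: it read 5.72, 1.88, 1.29, 7.28, 2.59, 1.27 and 1.65 in lines 1 to 7.

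Line 5 was highest for Zfp979 (7.23 against 2.04 to 3.82) and Foxl2, a factor of the ovary (4.56 against 2.42 to 3.19). It was lowest for Gm13290 (2.85 against 4.27 to 5.17) and for 4 neighbouring genes of the Y chromosome, of 8 measured there. For Y genes only the autosomal median was taken away, so a shift of the whole Y chromosome would stay in these values. Eif2s3y and Uty are 2 of the 6 single-line lows of line 5. Eif2s3y had values of 10.53, 10.79, 10.37, 10.60, 8.61, 9.97 and 10.83 in lines 1 to 7, and Kdm5d, Uty and Ddx3y at chrY:897788-1286629 were lowest in line 5 as well, by 1.18, 1.12 and 1.09. Line 6 was next lowest for all 4. Line 6 was highest for Arhgap36, an antagonist of protein kinase A (9.82 against 4.02 to 6.5), Mapk10, a stress kinase (7.74 against 4.04 to 5.56), and Pcdh10, a protocadherin (10.89 against 5.5 to 8.25). It was lowest for Dlx5, a homeobox factor of bone (4.81 against 6.75 to 8.14), and for the receptor Lrp3 (7.93 against 9.73 to 10.15). Gm10147, Gm14440, Fam205a3, Zfp979 and Gm13290 belong to families of near-identical copies, and their values are uncertain where reads were shared out between copies.

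Measured over all genes, line 2 was farthest from the other lines and line 3 nearest. The typical deviation of a line, the median distance from the median of the other 6, was 0.160, 0.181, 0.103, 0.128, 0.155, 0.141 and 0.137 in lines 1 to 7. The mean was 0.144 ± 0.0249 (SD, n = 7) and 0.122 ± 0.0358 (SD, n = 7) among the MEF-2 lines, and the difference of 0.0218 did not pass an exact two-sided permutation test (p = 0.206, adjusted p = 0.618 over 3 tests). Single-line highs averaged 15.0 ± 11.5 and 11.1 ± 10.1 per line (SD, n = 7 each, exact permutation p = 0.52, adjusted 0.686). Single-line lows averaged 5.43 ± 4.12 and 7.29 ± 7.2 (SD, n = 7 each, exact permutation p = 0.686, adjusted 0.686). The smallest p that 7 lines against 7 can give is 0.000583. These p-values measure the spread between lines, each sequenced once, and take the lines of a set, all from 1 embryo, as independent. A p above the threshold does not show that the sets are alike.

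Many genes spread in both sets. Of the 861 genes that varied among the MEF-1 lines, 264 also varied among the MEF-2 lines. These were 30.7% of the first and 37.2% of the second group. Another 281 of the 861 (32.6%) had a MEF-2 range under 1. Of all genes, only 17.8% had a MEF-2 range of 1 or more and 4.64% a range of 2 or more. The range was larger in MEF-1 for 60.9% of genes. Across genes, which are not independent, the SDs of the 2 sets had a Spearman correlation of 0.697, and expression level, with which the shares of varying genes differed in both sets, is common to the points. The test of unequal spread compared the absolute deviations from the set median with limma. Each deviation was first multiplied by the square root of n / (n - 1), with n lines in the set. On simulated data the test passed few of the genes given a wider spread in 1 set, so few calls do not show that spreads were alike. It called 4 genes, 0.0262% of 15285, with more spread in MEF-1 and 0 in MEF-2. With no filter on level, or with a prior without a trend, it called 0, and with deviations from the mean of the set it called 275 and 82. At an unadjusted p under 0.05 there were 836 genes (5.47%) and 295 (1.93%). The 4 genes were Hoxb9, Hoxb8, Cpxm2 and Armh4.

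For Hoxb9 the mean of these scaled absolute deviations was 3.43 in MEF-1 and 0.14 in MEF-2, a difference of 3.29 ± 0.54 (SE, limma adjusted p = 2.46e-05). For Hoxb8 the difference was 2.96 ± 0.63 (SE, adjusted p = 0.0245). Cpxm2, a secreted carboxypeptidase-like protein, had values of 13.03, 5.42, 6.54, 12.74, 11.32, 9.17 and 6.04 in lines 1 to 7 and 4.06 to 4.19 among the MEF-2 lines (difference 2.90 ± 0.66, SE, adjusted p = 0.0481). Armh4 had values of 11.77, 5.2, 5.01, 12.00, 8.36, 3.96 and 3.93, and 3.12 to 4.74 among the MEF-2 lines (difference 2.66 ± 0.61, SE, adjusted p = 0.0481). All 4 were highest in lines 1, 4 and 5, and without any 1 of these lines no gene was called. In every MEF-2 line the 4 genes were at or under 4.74, a low level that leaves little room for spread. The SE and p-values take the lines of a set as independent. Each set came from 1 embryo, and lines 1, 4 and 5 also shared a low chromosome 18 median. Whether the lines are independent was not tested. Nlrp2, the gene with the widest range, had a difference of 2.15 ± 0.65 (SE) and an adjusted p of 0.224. The lowest p in the other direction belonged to Rps12-ps3, Arhgap32, Nnat, Olfr814 and Gm15097, with limma adjusted p from 0.197 to 0.212. Rps12-ps3, by its name a copy of a ribosomal protein gene, ranged widely in both sets (6.46 in MEF-1 and 6.59 in MEF-2). Its values are uncertain where reads were shared out between copies. Nnat, the imprinted neuronatin, lay between 2.24 and 2.54 among the MEF-1 lines and between 2.72 and 10.00 among the MEF-2 lines.

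The parental line lay inside the range of its 7 clones for 629 of the 861 varying genes (73.1%), against 56.1% of all genes. A wider range holds any value more often. It was below all clones for 159 varying genes and above all of them for 73.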

How the data were processed

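Total RNA of 16 lines, 1 library each, was depleted of ribosomal RNA, and the fragmentation time was set by RNA integrity. The authors trimmed reads with Trim Galore 0.6.0, quantified transcripts with Salmon 1.5.2 on mm10 and deposited rlog values (log2) made with DESeq2 1.24.0, with no counts. Groups were taken from the labels and gene names and positions from GENCODE M21. Of each rlog value the line's chromosome median (over genes above the 40th percentile of the 16-line mean, relative to all 14 clonal lines) was subtracted; chromosomes with under 20 such genes, Y and the mitochondrial genome took the autosomal median. Unequal spread was tested with limma 3.58.1 (trended prior, Benjamini-Hochberg adjustment, threshold 0.05) and values per line with exact permutation tests (scipy 1.17.1). The code was tested on simulated data.

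Named genes were the 12 widest ranges, up to 2 single-line highs and 2 lows per line with the widest gaps, the 8 lowest SDs above the 60th percentile, the 5 lowest p per direction, runs of 3 or more neighbours, markers and members of described lists. Genes named beside these were chosen after their values were seen. The members and lists were chosen with earlier results of these data known.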

Additional observations from a re-analysis of the deposited data

Results flagged for a closer look

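In 36 of the 135 genes named, 1 MEF-1 line lay far from the other 6, with a gap that took more of the range than the Dixon limit for 7 values. Chance gives about 1 in 20 per group, and most of these genes were named because of that gap, so their number is no result. The gap as a share of the range was 0.75 for Nlrp2, 0.791 for Rnf180, 0.662 for Sox2 and 0.713 for Sfrp1 (line 7 highest), 0.609 for Hoxa13 and 0.942 for Trpc2 (line 4 highest), 0.886 for Gm10147 and 0.699 for Col26a1 (line 1 highest), and 0.956 for Gm14440 (line 3 highest). It was 0.788 for Slc52a3 and 0.737 for Sult1a1 (line 2), 0.657 for Zfp979 and 0.642 for Foxl2 (line 5), and 0.573 for Arhgap36 and 0.589 for Mapk10 (line 6).

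With the line apart at the bottom, the share was 0.666 for Itgb6 and 0.631 for Cdsn (line 1), 0.813 for Sytl4 and 0.883 for Rtn4r (line 2), 0.59 for Fam205a3 and 0.709 for Ndn (line 3), 0.63 for Plch1 and 0.663 for Mpped2 (line 4), 0.614 for Gm13290, 0.612 for Eif2s3y and 0.582 for Uty (line 5), 0.582 for Dlx5 and 0.811 for Lrp3 (line 6), and 0.618 for Gm20422 (line 7).

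Some genes had a line apart although the gap itself was under 1 or the gene was named for another reason. The share was 0.621 for Mpdz, 0.65 for Arhgap32, 0.642 for Hoxa7, 0.628 for Thy1 and 0.759 for Epcam at the top, and 0.602 for Pdgfra and 0.598 for Rpl12 at the bottom. Epcam, an epithelial adhesion protein, was at 4.47 in line 5 and 2.70 to 3.12 in the others. Pdgfra, a fibroblast receptor, was at 14.01 in line 6 and 14.71 to 15.16 in the others. Among the MEF-2 clonal lines, line 5 held 23 single-line lows with 2 to 8 in the others, a share of 0.714.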

How the results depend on the processing

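Among the MEF-1 lines 861 genes varied. A mean above the 60th percentile left 105, a range of 1 or more gave 3624 and of 3 or more 227; the other settings stayed within 1.5 times, and leaving out each line gave 689 to 816. Single-line highs (105) became 40 and 2 with a mean above the 40th and 60th percentile, 28 with a gap of 2 or more and 278 with no limit on the share of the range. The lows (38) became 8 above the 60th percentile, 3 with a gap of 2 or more and 122 with no limit on the share. Leaving out each line gave 75 to 109 highs and 24 to 43 lows, with 25 lows without MEF-1 line 3 and 24 without line 4. The MEF-1 minus MEF-2 difference in highs per line, 3.86, turned to -1.43 and -0.143 with a mean above the 40th and 60th percentile and to -5.0 without MEF-2 line 2, with -5.0 to 7.02 over all lines left out; none passed the test. Lists with no varying gene fell from 16 to 6 at a range of 1 or more.

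The test of unequal spread (4 and 0 genes higher in MEF-1 and MEF-2) gave 2 on values as deposited, 0 above the 60th percentile, 0 with no filter, 0 for a prior without a trend, and 275 and 82 for deviations from the mean of the set. Above the 40th percentile 1 gene was higher in MEF-2. With 1 line left out it gave 0 to 5 and 0 to 1 genes, 0 without MEF-1 line 1, 4 or 5; 1 gene was higher in MEF-2 without MEF-2 line 2, 3, 4, 5 or 7. With the clone number as a replicate block it called 2 and 0; same-numbered lines correlated between -0.134 and 0.206, 1 of 7 best with its own number, and are not pairs. Over all settings the adjusted p of Hoxb9 lay between 1.66e-17 and 0.841. The cause of these changes was not tested. The promoter comparison at the 60th percentile was not run, since the check was void. Of 78 named genes with a range of 2 or more, 1 was under 2 on values as deposited and 5 with a median over 10 Mb in place of the chromosome. Read depth is unknown.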
